A study of Mus musculus with 16 samples.

Results

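The comparison described here sets 4 hippocampus libraries of Tspo knockout mice injected with lipopolysaccharide (LPS) against 4 hippocampus libraries of wild-type mice injected with LPS. Its 8 libraries are 8 of the 16 in the series; the others came from knockout and wild-type mice injected with PBS, the vehicle, with 4 libraries in each group. All mice were labelled as 3 months old. The labels give no dose of LPS, no time between injection and collection, no route, and no description of the knockout allele or its background strain. Nothing in them states that the 4 libraries of a group came from different mice. The p-values therefore rest on the spread between libraries, which may be technical, and n counts libraries.

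TSPO, the translocator protein, sits in the outer mitochondrial membrane. It binds cholesterol, and ligands of it serve in brain imaging because its level rises in reactive microglia and astrocytes. LPS is a bacterial cell wall component that binds CD14, MD-2 and TLR4; the signal runs through the adaptors MyD88 and TRIF to the transcription factors of the NF-kappaB and IRF families, and from there to cytokines and interferons. Interferons act on neighbouring cells through a JAK and STAT relay, which switch on a large set of antiviral genes. In the brain an injection of LPS is known to activate endothelial cells, microglia and astrocytes.

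Under LPS the knockout libraries held less RNA of most genes in the interferon, MHC class I, complement, reactive astrocyte and endothelial activation lists. They held more RNA of most myelin protein genes, of many enzymes of myelin lipid and cholesterol synthesis, and of several genes of resting microglia. Mean list scores (log2 CPM minus that of wild-type PBS) in knockout LPS and knockout PBS were -0.26 and -0.25 for guanylate-binding proteins. They were -0.12 and -0.09 for MHC class I, -0.16 and -0.11 for myelin proteins and 0.48 and -0.03 for leukocytes. Knockout LPS was not tested against knockout PBS here. In wild-type LPS only replicates 2 to 4 were raised for guanylate-binding proteins and MHC class I, with replicate 1 at -0.14 and -0.05. Of 16269 genes tested, 1935 passed an adjusted p of 0.05 (edgeR quasi-likelihood F test, Benjamini-Hochberg), which is 11.9% of the genes tested. Of these, 750 were higher in knockout LPS (4.61%) and 1185 were lower (7.28%). Here and below, rose and fell mean higher and lower in knockout LPS than in wild-type LPS, and not a change from PBS. The lower genes had the wider changes: their median log2 fold change was -0.59, and 390 of them differed at least 2-fold, against a median of 0.39 and 81 such genes among the higher ones. In the same genes the median difference between knockout and wild type under PBS was 0.02 for the lower and -0.02 for the higher genes. Because tissue RNA was measured, fewer cells of a type and less RNA per cell cannot be told apart anywhere below.

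The deleted gene was read first. Tspo (ENSMUSG00000041736; GRCm38 chromosome 15, bases 83563592 to 83574203, plus strand) stood at 0.486, 0.366, 0.274 and 0.209 CPM (read counts scaled to library size and composition) in knockout LPS libraries 1 to 4, against 2.63, 11.9, 9.4 and 10.1 CPM in wild-type LPS libraries 1 to 4. The groups did not overlap, but wild-type replicate 1 was far below the other 3 and near the wild-type PBS mean of 3.09 CPM. The log2 fold change was -4.64 ± 0.73 (SE; adjusted p = 0.00308, edgeR), and an exact two-sided permutation test over the 8 libraries gave p = 0.0286, the smallest that 4 against 4 libraries allow. Under PBS, 3 knockout libraries held 0.152, 0.28 and 0.47 CPM. In that group replicate 1 goes against its label, with 2.33 CPM, inside the wild-type PBS range; it enters the comparison under LPS only through the shared estimate of spread.

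Wild-type LPS replicate 1 lay far from the other 3 wild-type LPS libraries in 18 of 49 list scores and 26 of 177 named genes. Lcn2, the gene of lipocalin-2 (chromosome 2, 32384633 to 32388252, minus strand), a secreted iron-siderophore trap and a marker of reactive astrocytes, had 0, 0, 0.11 and 0.119 CPM in knockout LPS, against 0.641, 238, 209 and 237 CPM in wild-type LPS. In knockout LPS these levels rest on 0, 0, 4 and 4 counts, so the fitted log2 fold change of -11.58 ± 1.5 (adjusted p = 0.00308, edgeR) fixes the direction better than the size. Wild-type replicate 1 lay above the knockout range for Lcn2 and far under its own group. Across the 1185 lower genes, this library lay inside the knockout range in 427 (36%), beyond it on the far side in 101, and level with or past the other 3 wild-type libraries in 225 (19%). Across the 750 higher genes it lay inside the knockout range in 137 (18.3%) and level with or past the other 3 in 258 (34.4%). In 595 of the higher and 639 of the lower genes the 2 groups did not overlap with this library included; over all genes tested the groups did not overlap in 2331 (14.3%).

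Several other measures moved with that library or with genotype. Wild-type LPS replicate 1 held reads of the Y-linked gene Ddx3y (58.4 CPM), as did knockout LPS replicates 3 and 4 (66.2 and 62 CPM); the other 5 LPS libraries had none. With the presence of these reads as a covariate 1396 genes passed, and in a fit of only libraries without them 2254 did; 71.4% and 70.5% of the 1935 genes were among those. The choroid plexus score of wild-type LPS replicate 1 (the mean over 15 genes of log2 CPM minus the average of wild-type PBS) was -3.59, where knockout LPS ran from 0.66 to 1.67, the other wild-type LPS libraries from -0.26 to 0.93, and wild-type PBS replicate 1 stood at -3.45. Ttr, the transthyretin gene that defines this epithelium, stood at 1.5 CPM in wild-type LPS replicate 1 and at 518 CPM or more in the other 7 LPS libraries. None of 15 choroid plexus, 13 ependymal or 20 hippocampal subfield genes passed in either direction, and the part of the choroid plexus level in the results was not tested. The hippocampal markers Prox1, of dentate granule cells, and Wfs1, of CA1 pyramidal cells, were present throughout. The lowest library had 60.4 and 94.4 CPM in knockout LPS, against 54.1 and 96.7 CPM in wild-type LPS. Titles carry codes of unstated meaning. Knockout LPS replicates 1 and 2 have one in common, and a second code stands on knockout PBS replicate 4 and on wild-type LPS replicates 2 to 4. Wild-type LPS replicate 1 carries a different code from the rest of its group and shares it with wild-type PBS replicate 4. No code is shared between the genotypes under LPS, so code and genotype cannot be told apart there.

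Without wild-type LPS replicate 1, 4005 genes passed. The number was 1088, 858 and 958 without wild-type LPS replicate 2, 3 or 4, and 1273 and 1035 without knockout LPS replicate 2 or 3. Of the 1935 genes, 97.9% passed without wild-type LPS replicate 1, and 50.7%, 43.8% and 48% without replicate 2, 3 or 4. Limma-voom with sample weights passed 4073. A fit of only the 8 LPS libraries passed 438, among them 5 guanylate-binding proteins, 8 MHC class I, 7 reactive astrocyte and 7 endothelial activation genes that fell and 3 myelin protein and 5 myelin lipid genes that rose. In that fit no LPS sensing gene fell, and no resting microglia or cholesterol gene rose. It kept 20.9% of the 1935 genes. It takes the spread from the LPS libraries alone, where the main fit pools it over all 16. Chi-square per gene ran from 20.4 to 114 between pairs of wild-type LPS libraries. It ran from 15.9 to 28.6 between pairs of knockout LPS libraries. The part of this pooling in the difference between 438 and 1935 was not tested. Each of the 1935 genes kept its sign in every one of 28 alternative settings that tested it. These settings reuse the libraries in which the genes were picked, so the kept signs are no independent support. The filter on low counts asks for reads in as many libraries as the smallest group holds. Genes present only in wild-type LPS replicates 2 to 4 therefore enter a list once a library other than these is left out. Such refits can pass more members than were tested here.

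**Figure D1:**
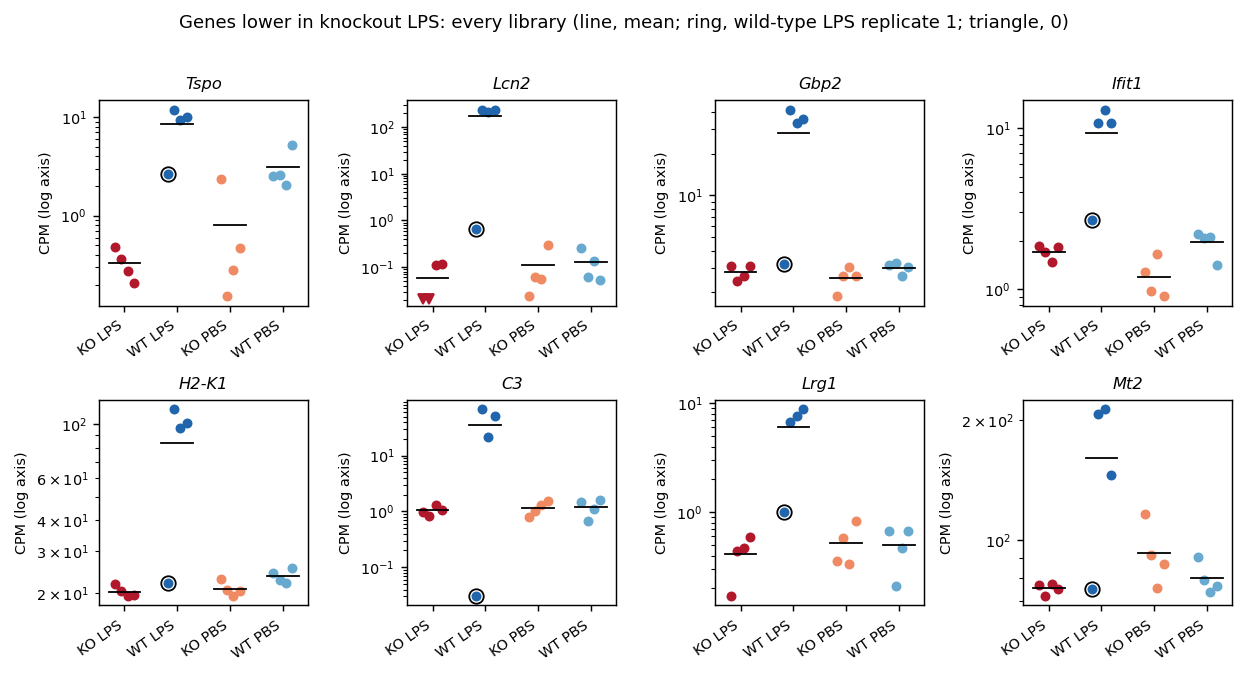
CPM on log axes for 8 genes in every library, by group, with the group mean as a line, wild-type LPS replicate 1 ringed and values of 0 as triangles at the lower edge. Wild-type LPS replicates 2 to 4 sit above every other library. The ringed library lies among the PBS libraries for Tspo, Gbp2, H2-K1 and Mt2, above them for Lcn2, Ifit1 and Lrg1, and below all others for C3, at 0.0305 CPM.

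Promoters with an interferon-stimulated response element are shown first, because the families that follow hold many of them. The element was searched as GAAA, any 2 bases and GAAA on both strands, with overlapping matches counted, in RefSeq windows on GRCm38.p6 from 250 bases before to 50 bases after each annotated start. Windows were found for 920 of the 1185 lower genes and 567 of 749 higher symbols. A gene with several annotated starts has several windows, which can overlap and were counted separately. The element lay in 76 of 1138 windows of lower genes (6.68%), in 20 of 741 windows of higher genes (2.7%), in 3.04% of windows of all genes tested and in 3.44% of all 32851 windows. By list it lay in 4 of 5 windows of guanylate-binding proteins, 5 of 6 of immunity-related GTPases, 8 of 12 of the IFIT, OAS and RNA sensor list and 7 of 15 of the IFITM list. It lay in 4 of 6 windows of PYHIN DNA sensors, 4 of 18 of MHC class I and 2 of 18 of interferon receptors and regulators. A match is a description of the letters and not a mapped site. The 4 windows shown belong to genes whose values follow; each reads 5′ to 3′ on the gene's strand, and capitals mark the matches, which lie on the opposite strand in Gbp2 and Ifit1.

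Gbp2, chr3:142620413-142620712, plus strand: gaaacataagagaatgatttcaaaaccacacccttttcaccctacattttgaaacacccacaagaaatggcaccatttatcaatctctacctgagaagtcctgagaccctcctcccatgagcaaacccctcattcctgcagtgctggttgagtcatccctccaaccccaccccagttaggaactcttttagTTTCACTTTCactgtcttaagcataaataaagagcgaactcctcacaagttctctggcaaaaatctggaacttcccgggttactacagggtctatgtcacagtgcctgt
Ifit1, chr19:34640639-34640938, plus strand: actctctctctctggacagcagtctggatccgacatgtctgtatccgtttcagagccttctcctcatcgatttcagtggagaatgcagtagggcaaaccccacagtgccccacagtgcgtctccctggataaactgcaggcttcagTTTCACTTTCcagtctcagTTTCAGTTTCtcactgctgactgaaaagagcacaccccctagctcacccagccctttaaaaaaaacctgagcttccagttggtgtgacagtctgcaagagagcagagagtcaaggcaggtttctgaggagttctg
Irgm1, chr11:48871371-48871670, minus strand: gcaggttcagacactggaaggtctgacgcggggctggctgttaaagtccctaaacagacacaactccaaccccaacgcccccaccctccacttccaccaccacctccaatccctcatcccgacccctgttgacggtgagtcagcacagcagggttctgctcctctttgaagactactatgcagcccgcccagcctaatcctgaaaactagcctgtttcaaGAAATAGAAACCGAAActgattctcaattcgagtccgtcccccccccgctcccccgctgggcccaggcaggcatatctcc
Ifitm3, chr7:141010695-141010994, minus strand: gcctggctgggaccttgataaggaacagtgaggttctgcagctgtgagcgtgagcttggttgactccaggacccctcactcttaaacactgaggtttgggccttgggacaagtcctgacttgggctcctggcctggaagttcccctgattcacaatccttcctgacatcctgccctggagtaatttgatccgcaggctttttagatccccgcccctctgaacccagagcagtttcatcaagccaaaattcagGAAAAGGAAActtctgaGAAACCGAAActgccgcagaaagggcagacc

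The match in Gbp2 began 59 bases before the start, those in Ifit1 104 and 85 bases before it, and the 2 overlapping matches in Irgm1 30 and 24 bases before it. In Ifitm3 both lay just after the annotated start.

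Guanylate-binding proteins are large GTPases, induced by interferon, that coat the vacuoles of intracellular pathogens. Of 9 tested, 8 were lower in knockout LPS than in wild-type LPS and none was higher. The median log2 fold change of the list was -2.82, where that of all genes tested rounded to 0. Gbp2 had 3.09, 2.41, 2.6 and 3.07 CPM in knockout LPS, against 3.21, 41.7, 33.2 and 35.7 CPM in wild-type LPS. Wild-type replicate 1 lay just above the highest knockout library and the other 3 far above it (log2 fold change -3.35 ± 0.51, adjusted p = 0.00308, edgeR). Gbp4 fell by 3.87 ± 0.56, Gbp6 by 2.82 ± 0.44 and Gbp5 by 2.87 ± 0.47 on the log2 scale, with adjusted p between 0.00308 and 0.00359. These genes are close copies, so reads may be split between them; Gbp11, at 0.68 with an adjusted p of 0.23, did not pass.

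All 8 immunity-related GTPases tested, a family that also acts on vacuole membranes, fell, with a list median of -2.43. Irgm1, a regulator of the family that sits on host membranes, had 5.98, 5.78, 6.8 and 7.6 CPM in knockout LPS, against 7.66, 29.3, 28 and 25.8 CPM in wild-type LPS. The groups were apart by a narrow margin at wild-type replicate 1 and by a wide one at the rest (-1.8 ± 0.29, adjusted p = 0.00328, edgeR). Iigp1 fell by 2.8 ± 0.43, Irgm2 by 1.88 ± 0.31 and Igtp by 2.36 ± 0.42 on the log2 scale. The guanylate-binding protein score in the 4 knockout LPS libraries ran from -0.38 to -0.19, against -0.14 in wild-type LPS replicate 1 and 2.2 to 2.56 in replicates 2 to 4.

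Among the IFIT proteins, which bind viral RNA, the 2′-5′ oligoadenylate synthetases, which activate RNase L, and the cytosolic RNA sensors, 12 of 14 fell and none rose. Ifit1 had 1.85, 1.71, 1.48 and 1.82 CPM in knockout LPS, against 2.69, 10.8, 13 and 10.8 CPM in wild-type LPS, with no overlap (-2.45 ± 0.36, adjusted p = 0.00308, edgeR). Oasl2 fell by 2.91 ± 0.43, Oasl1 by 3.15 ± 0.48 and Oas2 by 2.28 ± 0.36 on the log2 scale. Ifit2 at -0.44 (adjusted p = 0.0846) and Oas3 at -1.6 (adjusted p = 0.0683) did not pass.

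Of 22 further interferon effectors, 17 fell and none rose. Ifitm3, a membrane protein that blocks the entry of enveloped viruses, had 6.13, 4.88, 5.02 and 5.6 CPM in knockout LPS, against 6.32, 62.9, 59.4 and 64.8 CPM in wild-type LPS. Wild-type replicate 1 was just above the knockout range and the other 3 far above it (-3.16 ± 0.47, adjusted p = 0.00308, edgeR). Its neighbours on chromosome 7, Ifitm1 and Ifitm2, fell by 3.02 ± 0.44 and 2.01 ± 0.28, and Isg15, a ubiquitin-like modifier, by 2.85 ± 0.42. In the PYHIN family of DNA sensors Ifi204 fell (-4.21 ± 0.65, adjusted p = 0.00308) and the other 4 tested did not pass; another 7 listed genes were too low to test. The count was 4 or 5 without any one PBS or knockout LPS library, and 7 without wild-type LPS replicate 1.

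The signalling genes themselves split. Of 18 interferon receptors and regulators, 7 fell and none rose. Irf7, the factor that amplifies type I interferon, fell by 3.66 ± 0.55, Nlrc5, the activator of MHC class I genes, by 3.37 ± 0.5 and Irf9 by 1.09 ± 0.22 on the log2 scale. The receptor genes Ifnar1 (-0.16, adjusted p = 0.0902), Ifnar2 (-0.26, adjusted p = 0.176) and Ifngr1 (-0.16, adjusted p = 0.351) did not pass. Without wild-type LPS replicate 1 the count of falling members was 11.

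**Figure D2:**
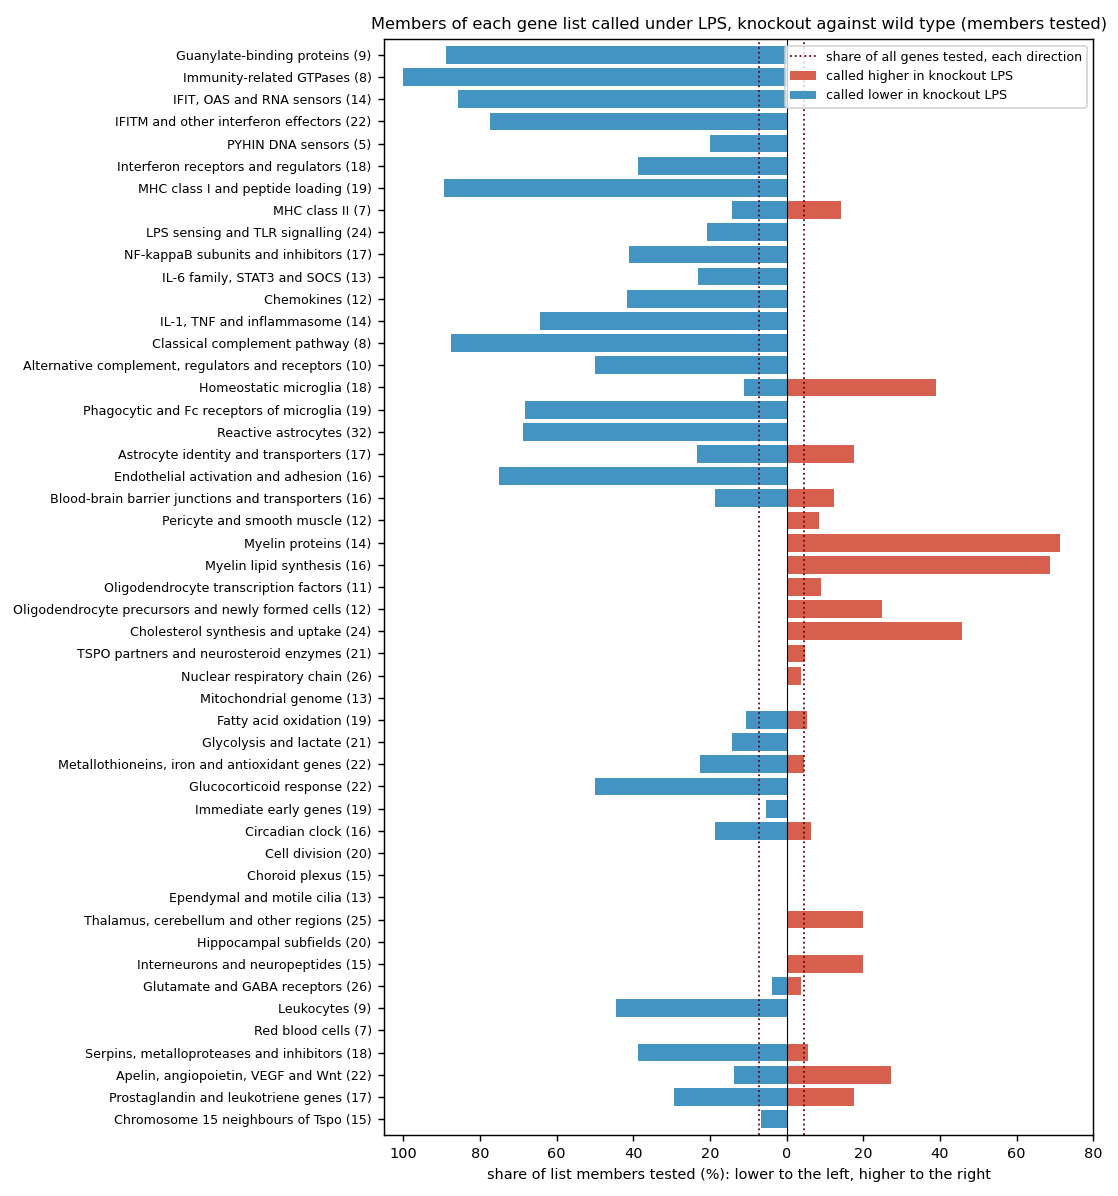
Share of the tested members of each gene list that passed under LPS, with lower in knockout to the left and higher to the right, and dotted lines at the shares of all genes tested (7.28% and 4.61%). The guanylate-binding protein, immunity-related GTPase, IFIT, IFITM, MHC class I and classical complement lists reach 77.3% to 100% on the lower side, and the interferon receptor and PYHIN lists 38.9% and 20%; myelin protein and myelin lipid lists reach 71.4% and 68.8% on the higher side.

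MHC class I molecules show peptides to CD8 T cells, and TAP transporters and the immunoproteasome supply those peptides. Of 19 genes tested, 17 fell and none rose, with a median of -1.4. H2-K1 had 21.8, 20.4, 19.5 and 19.7 CPM in knockout LPS, against 22, 115, 96.5 and 101 CPM in wild-type LPS, so that wild-type replicate 1 stood only just above the highest knockout library (-2.04 ± 0.33, adjusted p = 0.00328, edgeR). H2-Q6 (chromosome 17, 35424850 to 35430055, plus strand), a class Ib gene, had 0.414, 0.488, 0.548 and 0.537 CPM in knockout LPS, against 1.37, 9.18, 5.99 and 7.96 CPM in wild-type LPS, with no overlap (-3.62 ± 0.44, adjusted p = 0.00308). It was also among the 187 genes that passed the interaction of genotype and treatment (adjusted p = 0.0432, edgeR). That set shrank to 3 or fewer genes without any one knockout library. H2-Q4 fell by 2.77 ± 0.47 and H2-T23 by 1.54 ± 0.24. Class I genes are near-identical copies in part, so their separate levels are uncertain. H2-K1 had overlapping windows with the same pair of overlapping matches to a kappaB-type pattern (GGGA, any 4 bases and CC, on both strands). One of them reads as follows, with the matches in capitals.

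H2-K1, chr17:34000298-34000597, minus strand: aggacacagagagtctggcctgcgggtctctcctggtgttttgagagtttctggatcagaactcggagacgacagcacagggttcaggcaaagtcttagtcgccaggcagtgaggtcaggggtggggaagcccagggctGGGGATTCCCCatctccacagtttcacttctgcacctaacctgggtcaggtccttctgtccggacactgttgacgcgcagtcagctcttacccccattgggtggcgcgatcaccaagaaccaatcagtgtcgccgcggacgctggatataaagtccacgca

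That pattern lay in 28% of windows of lower genes, 25.4% of windows of higher genes, 25.9% of windows of genes tested and 20.7% of all windows. Of 7 MHC class II genes, Cd74, the invariant chain, fell (-1.43 ± 0.27, adjusted p = 0.00608, edgeR), at 1.41 to 2.26 CPM in knockout LPS, against 3.94 to 5.4 CPM in wild-type LPS. H2-Ob passed in the other direction on levels under 1 CPM, and no longer did so when any one of 13 libraries was left out.

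Among 24 genes that sense LPS or carry Toll-like receptor signals, 5 fell and none rose. Tlr2, the receptor of bacterial lipoproteins, had 1.09, 1.1, 0.768 and 0.894 CPM in knockout LPS, against 0.611, 10.1, 6.34 and 6.66 CPM in wild-type LPS; wild-type replicate 1 was the lowest of all 8 (-2.62 ± 0.53, adjusted p = 0.00786, edgeR). Cd14, the co-receptor that hands LPS to TLR4, fell by 1.46 ± 0.32 (adjusted p = 0.0122) and Tlr1 by 2.28 ± 0.52 (adjusted p = 0.0137). Tlr4, the LPS receptor, stood at -0.55 (adjusted p = 0.162), its adaptor gene Myd88 at -0.57 (adjusted p = 0.0635) and Ticam1, the gene of TRIF, at -0.25 (adjusted p = 0.281); none passed. The count was 12 without wild-type LPS replicate 1 and 3 without any one of wild-type LPS replicates 2, 3 and 4 or knockout LPS replicates 2, 3 and 4.

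Of 17 NF-kappaB subunits and inhibitors 7 fell and none rose. Bcl3, a nuclear IkappaB protein, had 0.268, 0.244, 0.0822 and 0.447 CPM in knockout LPS, against 0.336, 4.16, 4.29 and 4.21 CPM in wild-type LPS (-3.64 ± 0.62, adjusted p = 0.00396, edgeR). Wild-type replicate 1 again lay inside the knockout range. Ikbke fell by 1.26 ± 0.24, Zc3h12a, an endonuclease that degrades inflammatory transcripts, by 1.68 ± 0.33, and Tnip2 by 0.77 ± 0.15. The subunit genes Rela (-0.26, adjusted p = 0.0791) and Nfkb1 (-0.19, adjusted p = 0.115) did not pass, and the count was 11 without wild-type LPS replicate 1.

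Cytokines and their receptors followed. Of 14 genes of the IL-1, TNF and inflammasome list 9 fell. Il1r2, the decoy receptor of IL-1, fell by 5.1 ± 0.77, Casp4 (caspase-11, which senses LPS in the cytosol) by 2.79 ± 0.44, Tnfrsf1a by 1.33 ± 0.22 and Il1b by 2.45 ± 0.44, with adjusted p between 0.00308 and 0.0046 (edgeR). Il1b itself was scarce, with 0.146, 0.146, 0.137 and 0.119 CPM in knockout LPS, against 0.275, 1.02, 1.03 and 0.735 CPM in wild-type LPS, and the groups did not overlap. Of 13 genes of the IL-6 family with STAT3 and SOCS, 3 fell, among them Socs3, the feedback inhibitor, at 1.58 to 3.16 CPM in knockout LPS, against 3.76 to 10.6 CPM in wild-type LPS (-1.88 ± 0.3, adjusted p = 0.00313). Osmr fell by 1.59 ± 0.29 and Stat3 by 0.64 ± 0.13; the count was 5 without wild-type LPS replicate 1.

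Chemokines draw leukocytes into tissue. Of 12 tested, 5 fell and none rose; another 10 listed, Ccl2 and Cxcl9 among them, were too low to test. The count was between 8 and 10 without any one PBS library, knockout LPS library or wild-type LPS replicate 1. Cxcl10, the ligand of CXCR3 on T cells, had 0.122, 0.122, 0.192 and 0.149 CPM in knockout LPS, against 0.0305, 3.52, 3.64 and 2.91 CPM in wild-type LPS; wild-type replicate 1 held the lowest level of the 8 (-4.09 ± 0.77, adjusted p = 0.00578, edgeR). Ccl12, a ligand of CCR2, fell by 4.06 ± 0.68, Cxcl16 by 2.77 ± 0.46 and Ccl19 by 2.49 ± 0.36. Of 9 leukocyte markers 4 fell: S100a8 and S100a9, which neutrophils and monocytes carry in bulk, fell by 3.19 ± 0.88 and 3.37 ± 0.83, Ptprc, the gene of CD45, by 0.87 ± 0.21 and Ly6c2 by 1.16 ± 0.35, a call lost without any one of 12 libraries. Ptprc had 2.56 to 3.78 CPM in knockout LPS, against 3.11 to 7.12 CPM in wild-type LPS, and the ranges overlapped. The leukocyte score ran from -0.05 to 0.75 in knockout LPS, against 0.43 in wild-type LPS replicate 1 and 1.7 to 1.93 in replicates 2 to 4. The 4 calls became 1, 1 and 0 without wild-type LPS replicate 2, 3 or 4, and 2, 1 and 2 without knockout LPS replicate 1, 3 or 4; they were 6 without wild-type LPS replicate 1. Neither Cd4 (1.67, adjusted p = 0.199) nor Cd79a (0.06, adjusted p = 0.961), of T and B cells, passed.

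Complement tags targets for phagocytes, and microglia and astrocytes make most of it in the brain. Of 8 genes of the classical pathway 7 fell, with a median of -1.68. C3, the hub of the cascade, averaged 1.05 CPM in knockout LPS, where its highest library had 1.29 CPM, against 0.0305, 67.2, 21.1 and 51.3 CPM in wild-type LPS. Wild-type replicate 1 held the lowest C3 level of the 8 libraries and the other 3 were well above the knockout range (-5.06 ± 0.98, adjusted p = 0.00618, edgeR). C4b had 46.7, 41.2, 32.4 and 42.2 CPM in knockout LPS, against 38.6, 231, 197 and 181 CPM in wild-type LPS, with wild-type replicate 1 inside the knockout range (-2 ± 0.37, adjusted p = 0.0053). C1qb, made by microglia, fell by 1.2 ± 0.23 and C1s1 by 2.05 ± 0.34. Of 10 genes of the alternative pathway, regulators and receptors 5 fell, including factor B (Cfb) by 5.65 ± 0.88, Serping1 by 1.96 ± 0.37 and the C5a receptor C5ar1 by 2.45 ± 0.49. The C3 window held 3 matches to the kappaB-type pattern, in capitals.

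C3, chr17:57228087-57228386, minus strand: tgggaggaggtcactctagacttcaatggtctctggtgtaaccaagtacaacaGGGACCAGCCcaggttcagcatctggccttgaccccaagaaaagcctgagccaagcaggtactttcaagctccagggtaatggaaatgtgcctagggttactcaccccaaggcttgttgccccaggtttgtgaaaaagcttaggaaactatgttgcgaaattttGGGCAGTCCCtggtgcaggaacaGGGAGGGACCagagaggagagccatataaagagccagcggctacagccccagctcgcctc

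**Figure D3:**
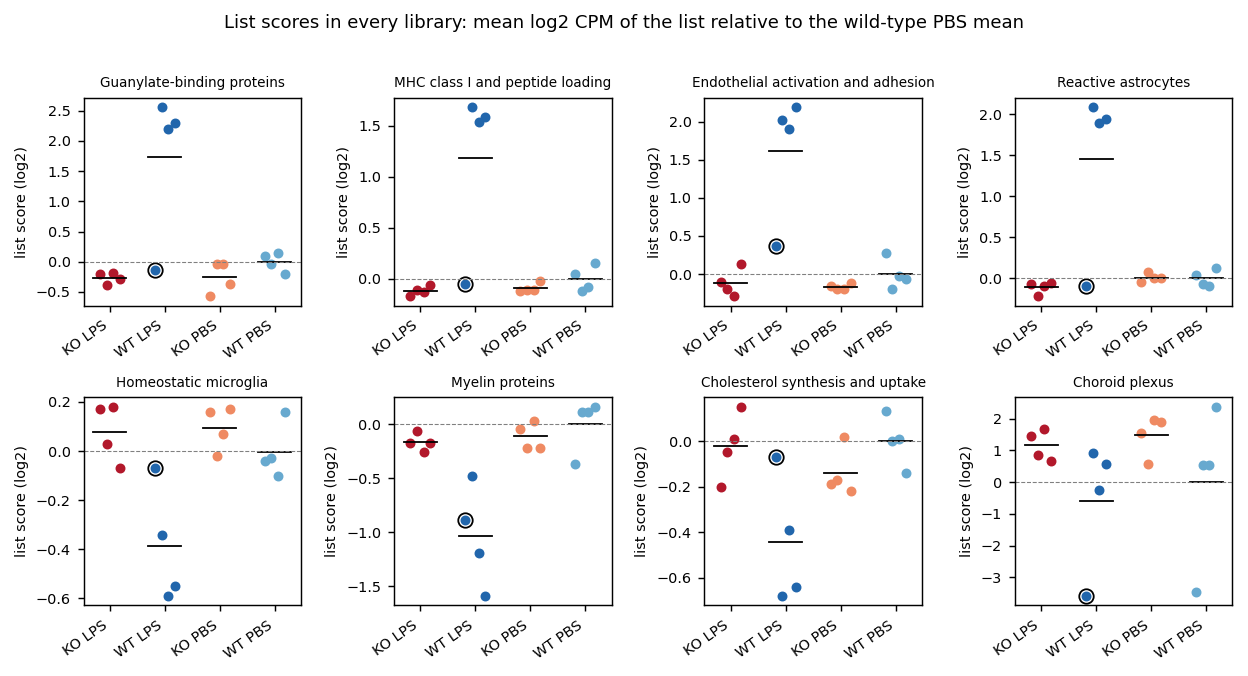
List scores in every library (mean log2 CPM of the list relative to the wild-type PBS mean) for 8 gene lists, with the group mean as a line and wild-type LPS replicate 1 ringed. Wild-type LPS replicates 2 to 4 stand above all other libraries for guanylate-binding proteins, MHC class I, endothelial activation and reactive astrocytes; for myelin proteins the ringed library lies within the range of its own group, at -0.89.

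Microglia, the resident macrophages, showed both directions. Of 18 genes of resting microglia 7 rose and 2 fell, the higher share being 38.9%. P2ry12, the ADP receptor that marks resting microglia, had 27.6, 23, 29.3 and 22.3 CPM in knockout LPS, against 20.1, 6.06, 6.14 and 4.97 CPM in wild-type LPS. The groups did not overlap, and wild-type replicate 1 stood close under the knockout range (1.47 ± 0.33, adjusted p = 0.0133, edgeR). Fcrls rose by 0.7 ± 0.16 and Gpr34 by 1.7 ± 0.43, while Itgam, the CD11b gene, fell by 1.1 ± 0.27 and Aif1, the IBA1 gene, by 0.74 ± 0.22, a call lost without any one of 7 LPS libraries. The 7 that rose were 2 without any one of wild-type LPS replicates 2, 3 and 4 or knockout LPS replicate 3, 4 without knockout LPS replicate 1 or 2, and 10 without wild-type LPS replicate 1. Tmem119 (-0.22, adjusted p = 0.206) and Cx3cr1 (-0.13, adjusted p = 0.589) did not pass.

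Genes of phagocytosis and Fc receptors mostly fell: 13 of 19, and none rose. Msr1, a scavenger receptor, had 0.0973, 0.122, 0.192 and 0.298 CPM in knockout LPS, against 0.214, 17.4, 11.4 and 11.7 CPM in wild-type LPS. Wild-type replicate 1 lay inside the knockout range (-5.85 ± 0.87, adjusted p = 0.00308, edgeR). Cybb and Ncf1, subunits of the NADPH oxidase, fell by 3.6 ± 0.59 and 1.88 ± 0.34, and the Fc receptor gene Fcgr3 by 1.31 ± 0.25.

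Reactive astrocyte genes, several of which also belong to the lists above, fell in 22 of 32 cases and rose in none, with a median of -1.43. Timp1, an inhibitor of metalloproteases, had 0.146, 0.122, 0.164 and 0.298 CPM in knockout LPS, against 0.336, 6.88, 9.19 and 10.2 CPM in wild-type LPS, with no overlap (-5.18 ± 0.79, adjusted p = 0.00308, edgeR). Gfap, the intermediate filament of astrocytes, averaged 268 CPM in knockout LPS and 895 CPM in wild-type LPS (-1.74 ± 0.34, adjusted p = 0.00667), and Serpina3n averaged 26.3 CPM in knockout LPS and 300 CPM in wild-type LPS (-3.51 ± 0.7, adjusted p = 0.00688). Genes of astrocyte identity moved less and both ways: 3 of 17 rose and 4 fell. The bicarbonate transporter Slc4a4 had 189 to 205 CPM in knockout LPS, against 123 to 142 CPM in wild-type LPS, with wild-type replicate 1 among its group at 136 CPM (0.53 ± 0.11, adjusted p = 0.00806). The GABA transporter Slc6a11 rose by 0.89 ± 0.21 (not without wild-type LPS replicate 3), and Fgfr3 and Clu fell by 0.53 ± 0.14 and 0.42 ± 0.11. None of the 4 that fell passed without wild-type LPS replicate 2, 3 or 4.

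Endothelial cells line the vessels and display adhesion molecules when activated. Of 16 genes of endothelial activation 12 fell, with a median of -1.35. Selp, the gene of P-selectin, on which leukocytes roll, had 0.0243, 0, 0 and 0.0596 CPM in knockout LPS, from 1, 0, 0 and 2 counts, against 0.305, 5.32, 5.2 and 7.37 CPM in wild-type LPS (adjusted p = 0.00308, edgeR); no fold is given on 3 counts. Lrg1, a modulator of TGF-beta signalling in vessels, had 0.17, 0.439, 0.466 and 0.596 CPM in knockout LPS, against 1.01, 6.74, 7.67 and 8.77 CPM in wild-type LPS, with no overlap (-3.86 ± 0.58, adjusted p = 0.00308). Icam1, the ligand of leukocyte integrins, fell by 3.11 ± 0.51 and Ch25h, which makes 25-hydroxycholesterol, by 4.1 ± 0.64. Of 16 barrier genes 2 rose (12.5%) and 3 fell (18.8%), where 4.61% and 7.28% of all genes tested did. Slco1c1, a thyroxine transporter, had 48.6 to 56.4 CPM in knockout LPS, against 18.5 to 40.2 CPM in wild-type LPS (0.93 ± 0.18, adjusted p = 0.00598); Cldn5, the main claudin of brain vessels, fell by 0.57 ± 0.14 and Mfsd2a, a lipid transporter, by 0.87 ± 0.2. Without any one LPS library other than wild-type replicate 1, 1 barrier gene rose and 1 or 2 fell. Of 12 mural cell genes 1 rose (8.33%, where 4.61% of all genes tested rose) and none fell, and the list median was -0.01. The one that rose was the pericyte gene Rgs5, at 85.2 to 94.7 CPM in knockout LPS, against 52.4 to 75.7 CPM in wild-type LPS (0.5 ± 0.1, adjusted p = 0.0066).

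Of 18 serpins, metalloproteases and their inhibitors 7 fell (38.9%) and 1 rose (5.56%), where 7.28% and 4.61% of all genes tested did. The one that rose was Serpinb1a, an inhibitor of neutrophil elastase, at 11, 9.02, 11.1 and 12.2 CPM in knockout LPS, against 5.19, 3.96, 2.88 and 1.95 CPM in wild-type LPS, with no overlap and wild-type replicate 1 nearest to the knockout (1.64 ± 0.24, adjusted p = 0.00308, edgeR). Adamts1 fell by 1.9 ± 0.37. The count of falling members was 12 without any PBS library, 15 without wild-type LPS replicate 1 and 4 without wild-type LPS replicate 4. Among 17 prostaglandin and leukotriene genes 5 fell, including Alox5 (5-lipoxygenase, -2.92 ± 0.48) with its partner Alox5ap (-1.39 ± 0.23) and the prostaglandin E synthase Ptges (-1.11 ± 0.21), and 3 rose, including Hpgd, which inactivates prostaglandins (0.73 ± 0.15, adjusted p = 0.00864). Of the 3 that rose, 1 or 2 passed without any one LPS library other than wild-type replicate 1, and 8 genes fell without that one.

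Genes that respond to stress hormones or bind metals were read next. Of 22 glucocorticoid-responsive genes 11 fell and none rose; this became 4, 5 and 6 without wild-type LPS replicate 2, 3 or 4, 5 to 7 without any one knockout LPS library, and 15 without wild-type LPS replicate 1. Plin4, a lipid droplet coat protein, had 7.3, 8.04, 4.11 and 4.71 CPM in knockout LPS, against 3.66, 183, 131 and 83.8 CPM in wild-type LPS; wild-type replicate 1 was the lowest of the 8 (-4.05 ± 0.86, adjusted p = 0.00972, edgeR). Map3k6 fell by 2.12 ± 0.37 and the cell cycle inhibitor gene Cdkn1a by 2.03 ± 0.38, while Nr3c1, the glucocorticoid receptor gene, stood at 0.24 (adjusted p = 0.182). Of 22 metallothionein, iron and antioxidant genes 5 fell (22.7%) and 1 rose (4.55%), where 7.28% and 4.61% of all genes tested did. The number that fell was 2 or 3 without any one LPS library other than wild-type replicate 1, and 8 without that one. The metallothionein genes Mt1 and Mt2 had 112 to 119 and 72.2 to 77.3 CPM in knockout LPS, against 386 to 491 and 146 to 213 CPM in wild-type LPS replicates 2 to 4 and 118 and 75.3 CPM in replicate 1 (-1.66 ± 0.29 and -1.09 ± 0.23, adjusted p = 0.00445 and 0.0101). The iron exporter gene Slc40a1 rose, at 7.02 to 8.49 CPM in knockout LPS, against 2.97 to 5.86 CPM in wild-type LPS (0.91 ± 0.18, adjusted p = 0.00748). Of 16 clock genes 3 fell (18.8%) and 1 rose (6.25%), where 7.28% and 4.61% of all genes tested did. Per3 fell by 0.67 ± 0.14, and 1 or 2 clock genes fell without any one LPS library other than wild-type replicate 1. Of 19 immediate early genes 1 fell (5.26%, under the share of all genes tested). It was Junb, by 0.95 ± 0.2, and 5 fell without knockout LPS replicate 4.

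**Figure D4:**
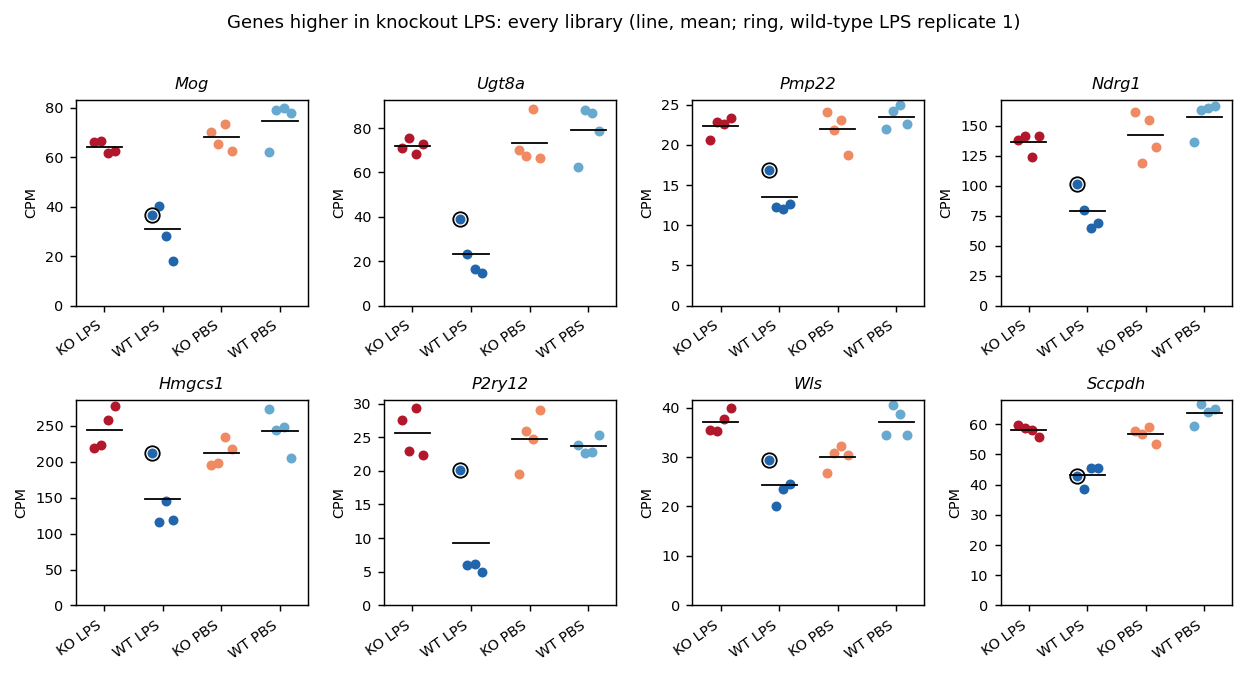
CPM on linear axes from 0 for 8 genes that were higher in knockout LPS, in every library, by group, with the group mean as a line and wild-type LPS replicate 1 ringed. Wild-type LPS libraries sit below the knockout LPS libraries, which lie within or near the range of the PBS libraries; the ringed library sits near the other wild-type LPS libraries for Mog and Sccpdh and near the knockout for Hmgcs1 and P2ry12.

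Of the lists read, those of myelin proteins and myelin lipid synthesis had the highest shares of rising genes; oligodendrocytes are the cells that wrap axons in myelin. Of 14 myelin protein genes 10 rose and none fell (71.4%, against 4.61% of all genes tested), with a median log2 fold change of 0.69. Mog, on the outer face of the sheath, had 66.3, 66.8, 61.7 and 62.4 CPM in knockout LPS, against 36.8, 40.4, 28.3 and 18 CPM in wild-type LPS. Here the groups were apart and wild-type replicate 1 lay within the range of its own group (1.06 ± 0.18, adjusted p = 0.0036, edgeR). The connexin gene Gjb1, whose channels join layers of the sheath, rose by 1.19 ± 0.22. Mbp at 0.31 (adjusted p = 0.321) and Mobp at 0.11 (adjusted p = 0.817) did not pass. The count was 6 without wild-type LPS replicate 3.

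Enzymes that build myelin lipid were higher in knockout LPS than in wild-type LPS in 11 of 16 cases and lower in none. The list score averaged -0.09 in knockout LPS, -0.06 in knockout PBS and -0.54 in wild-type LPS. Ugt8a, which makes galactosylceramide, had 71, 75.7, 68.5 and 72.7 CPM in knockout LPS, against 39, 23.4, 16.7 and 14.6 CPM in wild-type LPS, with no overlap (1.62 ± 0.23, adjusted p = 0.00308, edgeR). The desaturase genes Scd2 and Scd1 rose by 0.4 ± 0.07 and 0.63 ± 0.13 and the elongase gene Elovl6 by 0.55 ± 0.12. The count was 6, 4 and 7 without wild-type LPS replicate 2, 3 or 4. Other genes with the smallest p among the higher ones included Pmp22, a myelin protein best known from peripheral nerve, at 20.6 to 23.3 CPM in knockout LPS, against 12 to 16.9 CPM in wild-type LPS (0.73 ± 0.1), Car2, the carbonic anhydrase of oligodendrocytes (0.99 ± 0.15), and Ndrg1 (0.79 ± 0.13, adjusted p = 0.00328). Of 11 oligodendrocyte transcription factor genes 1 rose (9.09%, where 4.61% of all genes tested rose). It was Olig1 (0.49 ± 0.1, adjusted p = 0.00694), while Sox10 (0.3, adjusted p = 0.139) and Myrf (0.08, adjusted p = 0.842) did not pass. Of 12 genes of precursors and newly formed cells C1ql1 (0.92 ± 0.15), Enpp6 (1.01 ± 0.21) and Gpr17 (0.61 ± 0.15) rose, and the precursor marker Pdgfra stood at -0.23 (adjusted p = 0.186).

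Cholesterol synthesis, which supplies the main lipid of myelin, rose in 11 of 24 genes and fell in none, with a median of 0.45. Hmgcs1, early in the pathway, had 219, 224, 258 and 278 CPM in knockout LPS, against 212, 116, 145 and 119 CPM in wild-type LPS; wild-type replicate 1 stood just under the knockout range (0.73 ± 0.16, adjusted p = 0.0116, edgeR). Of the late enzymes Dhcr7 rose by 0.53 ± 0.11 and Nsdhl by 0.42 ± 0.08, and Mvd rose by 0.8 ± 0.18. Srebf2, the regulator of the pathway, stood at 0.4 (adjusted p = 0.0684). The count was 17 without wild-type LPS replicate 1, 6, 6 and 5 without replicates 2, 3 or 4, and 7 and 6 without knockout LPS replicate 3 or 4.

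TSPO is often discussed with cholesterol import into mitochondria, so its partners were read as a list. Of 21 partners and neurosteroid enzymes Acbd3, an adaptor that binds TSPO, rose by 0.22 ± 0.06 (adjusted p = 0.0265, edgeR). That call was lost without any one of 7 LPS libraries, and 3 rose and 1 fell without wild-type LPS replicate 1. Dbi, the gene of an endogenous TSPO ligand (-0.19, adjusted p = 0.418), Vdac1 (0.06, adjusted p = 0.484), Star (0.01, adjusted p = 0.976) and Cyp11a1 (-0.12, adjusted p = 0.772) did not pass. Of 26 nuclear genes of the respiratory chain Cox5a passed (0.23 ± 0.07, adjusted p = 0.0377), a call lost without any one of 9 libraries. Of 13 genes of the mitochondrial genome none passed, though 6 rose without knockout LPS replicate 4 and 2 without wild-type LPS replicate 1. Of 19 genes of fatty acid oxidation Hadhb rose (0.24 ± 0.05, adjusted p = 0.0104) and 2 fell, and of 21 gene identifiers of glycolysis 3 fell, among them Pdk2 (-0.38 ± 0.08, adjusted p = 0.00948). Without wild-type LPS replicate 1, 5 genes fell and 1 rose in fatty acid oxidation, and 3 fell and 5 rose in glycolysis. The share of each of these lists that rose lay between 0% and 5.26%, where 4.61% of all genes tested rose. The share that fell was 10.5% in fatty acid oxidation and 14.3% in glycolysis, where 7.28% of all genes tested fell. Of 15 neighbours of Tspo on chromosome 15, 1 fell (6.67%, under the share of all genes tested). It was Cyb5r3, with an adjusted p of 0.048 (edgeR), a call lost without any one of 12 libraries.

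Vascular and Wnt genes moved both ways, with 6 of 22 higher and 3 lower. Apln, the ligand apelin of endothelial tip cells, had 24.2, 29.7, 27.1 and 32.8 CPM in knockout LPS, against 20.1, 7.78, 5.87 and 4.97 CPM in wild-type LPS; wild-type replicate 1 was nearest to the knockout (1.56 ± 0.34, adjusted p = 0.0113, edgeR). Angptl4 fell by 1.89 ± 0.35, and Unc5b, a netrin receptor found on vessels, rose by 1.41 ± 0.21. Without any one LPS library other than wild-type replicate 1, 1 to 3 genes of the list rose and 1 to 3 fell. Genes of other brain regions are given here as a check of dissection: 5 of 25 were higher in knockout LPS, and the score of the list was -0.2 to 0.38 in knockout LPS, against -1.21 to -0.64 in wild-type LPS. Tnnt1, abundant in thalamus, had 13.8, 24.7, 16.4 and 8.08 CPM in knockout LPS, against 1.16, 1.16, 1.32 and 3.07 CPM in wild-type LPS (3.23 ± 0.78, adjusted p = 0.017); Lef1, which counts in both lists, rose by 1.31 ± 0.36. Their part in the higher genes, myelin genes included, was not tested. No gene of this list passed without wild-type LPS replicate 2 or 3, and 1 to 3 did without any one of 8 other libraries. Of 15 interneuron genes the GABA genes Slc32a1, Gad1 and Gad2 rose by 0.48 ± 0.12, 0.29 ± 0.07 and 0.42 ± 0.13; none of them passed without wild-type LPS replicate 2, and 1 did without knockout LPS replicate 3 or 4. Of 26 glutamate and GABA receptor genes 1 rose and 1 fell (3.85% each, where 4.61% and 7.28% of all genes tested did). Without wild-type LPS replicate 1, 9 of them rose. None of 20 cell division or 7 red cell genes passed.

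The same contrast in the PBS libraries shares no library with that under LPS. Wild-type PBS replicates 2 and 3 were closer than any other pair within a group (chi-square per gene 3.78, where the other pairs had 12.3 or more), though beyond sampling noise, and were kept as 2 libraries; with them summed, 1 gene passed under PBS and none in the interaction. It passed 6 genes (0.0369%), 5 higher (0.0307%) and 1 lower (0.00615%) in knockout; the groups did not overlap in 3.28% of genes, and 841 passed at an unadjusted p under 0.05; DESeq2 passed 17 and limma-voom 308. Of the 6, 5 also passed under LPS, all of them higher in knockout: Gm20075, Tmem181b-ps, Tmem181c-ps, Dynlt1b and Olfr648. Under LPS the calls of Tmem181c-ps and Dynlt1b were each lost without any one of 5 LPS libraries, and that of Olfr648 without wild-type LPS replicate 2 or 4. Snx29 passed under PBS alone (-1.45, adjusted p = 0.0039), with 3.79 CPM in knockout PBS and 10.4 CPM in wild-type PBS, and under LPS it stood at -0.48 (adjusted p = 0.0626). Tmem181b-ps, Tmem181c-ps and Dynlt1b lie within 6430112 to 6639790 of chromosome 17 and have close copies there, so their reads may be shared.

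**Figure D5:**
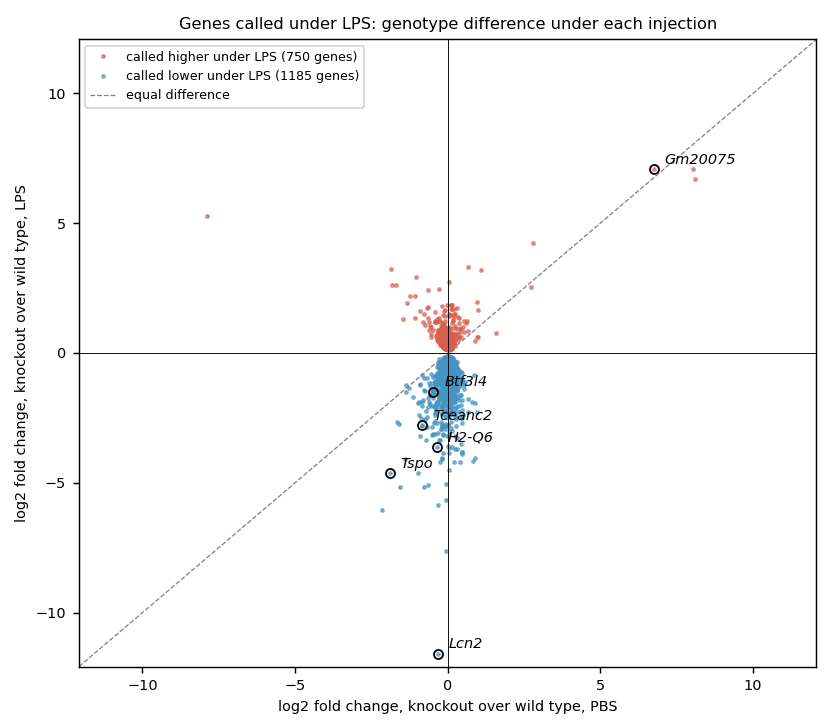
The log2 fold change of knockout over wild type under PBS (horizontal) and under LPS (vertical) for the 1935 genes that passed under LPS, in red where higher and blue where lower, with the line of equal difference dashed. Most genes lie near 0 on the PBS axis; Gm20075 lies near the dashed line, at 6.75 under PBS and 7.09 under LPS.

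The difference between the contrasts was tested as an interaction, which 187 genes passed (1.15%), 90 with a higher and 97 with a lower difference under LPS; 181 of them also passed under LPS. Their smallest adjusted p was 0.0349, and the count ran from 0 to 2655 over the fits that left out 1 library. The count was 3 or fewer without any one knockout library, wild-type PBS replicate 2 or 3, or wild-type LPS replicate 3 or 4. Single genes of this set are thus uncertain. Sccpdh had 59.9, 58.7, 58 and 55.8 CPM in knockout LPS, against 42.7, 38.6, 45.5 and 45.4 CPM in wild-type LPS, with no overlap, and averaged 56.8 CPM in knockout PBS and 63.8 CPM in wild-type PBS (difference of differences 0.6 on the log2 scale, adjusted p = 0.0349, edgeR). Wls, which carries Wnt proteins out of the cell, averaged 37 CPM in knockout LPS and 24.4 CPM in wild-type LPS, and 30 CPM in knockout PBS and 37.1 CPM in wild-type PBS (0.91, adjusted p = 0.0388).

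Some genes with strong calls under LPS varied within the knockout PBS group. Gm20075 (chromosome 13, 96079216 to 96081376) had 33.7, 39.1, 41.2 and 36.6 CPM in knockout LPS, against 0.183, 0.56, 0 and 0.253 CPM in wild-type LPS (7.09 ± 0.9, adjusted p = 0.00308, edgeR), and in knockout PBS 19.9, 0.91, 20.9 and 36.3 CPM. Knockout PBS replicate 2 stood near the wild type and replicates 1 and 3 stood between. Tceanc2 (chromosome 4, 107134155 to 107179116) showed the mirror image, with 2.29, 2.1, 3.21 and 3.34 CPM in knockout LPS, against 20, 18.4, 18.2 and 18.9 CPM in wild-type LPS (-2.79 ± 0.4, adjusted p = 0.00308), and 10.1, 20.3, 9.99 and 2.55 CPM in knockout PBS. Btf3l4, which lies on the same chromosome at 108814295 to 108833614, had 27.5, 25.7, 28.8 and 25.3 CPM in knockout LPS, against 63.1, 82.2, 80.7 and 75.4 CPM in wild-type LPS (-1.49 ± 0.19, adjusted p = 0.00308), and 41.8, 70.4, 39.7 and 28.3 CPM in knockout PBS. In all 3 genes wild-type LPS replicate 1 lay with or close to its own group, knockout PBS replicate 2 lay at or near the wild-type level, and knockout PBS replicate 4 lay near the knockout LPS level.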

How the data were processed

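RNA of 16 mouse hippocampus libraries, 4 per genotype and injection, was analysed from one deposited table. Per the submitters' processing notes, MultiQC 1.13, Salmon 1.9.0, DESeq2 and DESeq were used, with no role given; the deposited table holds an estimated count per gene and library, already whole. No source used here names the build the authors mapped to; symbols and positions came from GENCODE M21 (GRCm38), and 105 identifiers without a symbol held 0.0537% of counts. Of 19449 genes, filterByExpr of edgeR 4.0.16 (R 4.3.3) kept 16269 with 99.97% of counts. Library totals ran from 30198619 to 50009041. Libraries were scaled by TMM, with 4 group means fitted jointly to the 16 libraries; the contrasts and their interaction were tested by the quasi-likelihood F test, adjusted by Benjamini-Hochberg over all genes at 0.05. An SE is the log2 fold change over the root of F. List scores use log2 CPM with a prior count of 2. Promoters came from RefSeq (GRCm38.p6). The reads carry no molecular identifiers.

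The comparison, the gene lists and the naming rule were chosen with earlier results of these data known. The rule named the marker genes, 15 genes per direction with the smallest p and groups apart, up to 4 members per list, the top 10 interaction genes and genes passing under PBS; Tlr4, Mbp, Gfap and other members outside it were named for their known roles after their values had been seen. Alternatives used DESeq2 1.42.0, limma 3.58.1 and sva 3.50.0. The fit was tested on simulated data. Some genes are not reported here.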

Additional observations from a re-analysis of the deposited data

Results flagged for a closer look

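Wild-type LPS replicate 1 lay far from the other 3 libraries of its group in 18 of the list scores and in 26 of the 177 named genes. The cutoff used flags about 1 in 20 groups of independent, normally distributed values. The named genes were chosen in these same data and the lists share members, so that rate does not apply to these counts. The other LPS libraries stood out less often: knockout LPS replicate 4 in 1 list score (other brain regions, -0.2) and in 2 named genes, knockout LPS replicates 1, 2 and 3 in 2, 2 and 1 named genes, and wild-type LPS replicates 2 and 4 in 2 and 1.

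In the main fit 187 genes passed the interaction of genotype and treatment (edgeR). The count was 3 or fewer without any one knockout library. The 10 with the smallest p, as log2 differences of the LPS minus the PBS contrast, were Sccpdh at 0.6, Echdc1 at 0.52, Wls at 0.91, Nkx2-9 at 3.06, Tmprss5 at 2.42, Smyd1 at 2.27, Mob3b at 1.28, Mamstr at -1.2, Gm46223 at -1.05 and 4833420G17Rik at -0.51.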

How the results depend on the processing

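The count of genes under LPS was 1935; it was 1396 with sex as a covariate, 2254 in libraries without Ddx3y reads, 4073 with limma-voom and sample weights, 438 in a fit of only the 8 LPS libraries, 3907 without wild-type LPS replicate 1 and knockout PBS replicate 1, and 858 to 4005 over the fits leaving out 1 library. The PBS count of 6 was 17 with DESeq2, 308 with limma-voom, 19 in libraries without Ddx3y reads, 1 with wild-type PBS replicates 2 and 3 summed, and 1 to 9 leaving out 1 library. The interaction count of 187 was 63 with RLE scaling, 1278 with DESeq2, 4029 with limma-voom, 39 with no filter, 42 with a CPM of at least 1 in 4 libraries, 5 with 1 surrogate variable, 40 with sex as a covariate, 1820 in libraries without Ddx3y reads, 2400 without wild-type LPS replicate 1 and knockout PBS replicate 1, 0 with wild-type PBS replicates 2 and 3 summed, and 0 to 2655 leaving out 1 library; the cause was not tested. Sex, Ddx3y, the joint omission and the sum were chosen after seeing the data. With the replicate number as a block 1619 genes passed under LPS, 3 under PBS and 0 in the interaction; same-numbered libraries correlated at -0.23 to 0.36, so the numbers were not taken to pair them. Tspo passed in every setting. Of 176 named genes that passed under LPS, Tspo and 132 others passed in each of the 16 fits leaving out 1 library. These genes were named largely by small p in the same contrast. Of all 1935 genes, the share that passed in a single one of these fits ran from 43.8% (without wild-type LPS replicate 3) to 99.5% (without wild-type PBS replicate 4). In the fit of only the 8 LPS libraries 78 named genes no longer passed, and 38 of 50 list counts moved by over 1.5 times. Every gene that passed and entered a refit kept its sign, in refits that reuse the libraries in which it was picked.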
